A study of Mus musculus with 45 samples.

Results

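The 9 genes described here are 8 members of the mouse *Cyp3a* family, *Cyp3a11*, *Cyp3a13*, *Cyp3a16*, *Cyp3a25*, *Cyp3a41a*, *Cyp3a41b*, *Cyp3a44* and *Cyp3a59*, together with *Por*. They were taken by gene symbol from the 39179 genes counted in the series, and all 9 were among the 17464 genes with more than 4 reads in any liver. Liver RNA came from 45 female C57BL/6 mice, 5 per group, gavaged with sesame oil (the vehicle group) or with TCDD at 30, 10, 3, 1, 0.3, 0.1, 0.03 or 0.01 µg/kg. TCDD is a dioxin that activates the aryl hydrocarbon receptor (AhR). Dosing started on postnatal day 28 and was repeated every 4 days, and livers were taken after 28 days. Every treated group is set against the same 5 vehicle mice. The sample labels also call the mice ovariectomized and the gavage daily, which the study's methods do not.

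Cyp3a enzymes are cytochromes P450 of the hepatocyte endoplasmic reticulum. They oxidize steroids, bile acids and many drugs, and their genes are classic targets of the xenobiotic receptors PXR and CAR. *Por* encodes NADPH-cytochrome P450 reductase, the flavoprotein that passes electrons from NADPH to all microsomal P450 enzymes, so that a P450 cannot turn over without it. Several mouse *Cyp3a* genes, among them *Cyp3a16*, *Cyp3a41a*, *Cyp3a41b* and *Cyp3a44*, are known for expression that differs between the sexes, under the pattern of growth hormone secretion.

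At 30 µg/kg, 5 of the 9 genes were lower than in the vehicle group, and 0 were higher. *Cyp3a59* had a log2 fold change of -1.94 ± 0.23 (SE), *Cyp3a13* of -1.02 ± 0.21 and *Cyp3a25* of -0.84 ± 0.16. The scarce *Cyp3a16* and *Cyp3a41a* were at -3.07 ± 0.95 and -2.34 ± 0.76. *Cyp3a11*, which held most of the *Cyp3a* reads, differed by -0.10 ± 0.17, and *Por* by 0.37 ± 0.37. Neither passed the test (adjusted p = 0.712 and 0.479). These are values of edgeR's quasi-likelihood test with Benjamini-Hochberg adjustment over all genes, called at an adjusted p under 0.05. Of all genes tested, 29.6% were called at this dose, 14.1% lower and 15.5% higher. In bulk liver, fewer cells that express a gene and less of its RNA per cell cannot be told apart.

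Calls against vehicle appeared with rising dose. At 0.01, 0.03, 0.1 and 0.3 µg/kg edgeR called 0 of the 9 genes, and so did DESeq2. The shares of all genes called there by edgeR were 0%, 0.0573%, 0.0229% and 0.464%. At an unadjusted p under 0.05 there was 1 of the 9 at 0.01 µg/kg, *Cyp3a11*, and 3 at 0.3 µg/kg, *Cyp3a41b*, *Cyp3a44* and *Cyp3a59*. The share of all genes at that unadjusted threshold was not counted, and the shares above are at an adjusted p. At 1 µg/kg, where 1.76% of all genes were called, and again at 3 µg/kg, where 7.54% were, the call was *Cyp3a59* alone. *Cyp3a13* and *Cyp3a25* joined it at 10 µg/kg, where the share was 15.9%. All of these calls were lower. Of the 5 genes called at 30 µg/kg, 4 were at least 2-fold lower, a size that 11.4% of all genes reached in either direction. The test of all 8 doses together, which gives no direction, called 7 of the 9 genes, against 28.8% of all genes. The exceptions were *Cyp3a44* and *Por*. *Cyp3a11* and *Cyp3a41b* were called by it though at no single dose. The call of *Cyp3a41a* (edgeR adjusted p = 0.0444) held in only 19 of 45 fits with a mouse left out. It was also lost on library size alone (edgeR adjusted p = 0.0576).

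**Figure D1:**
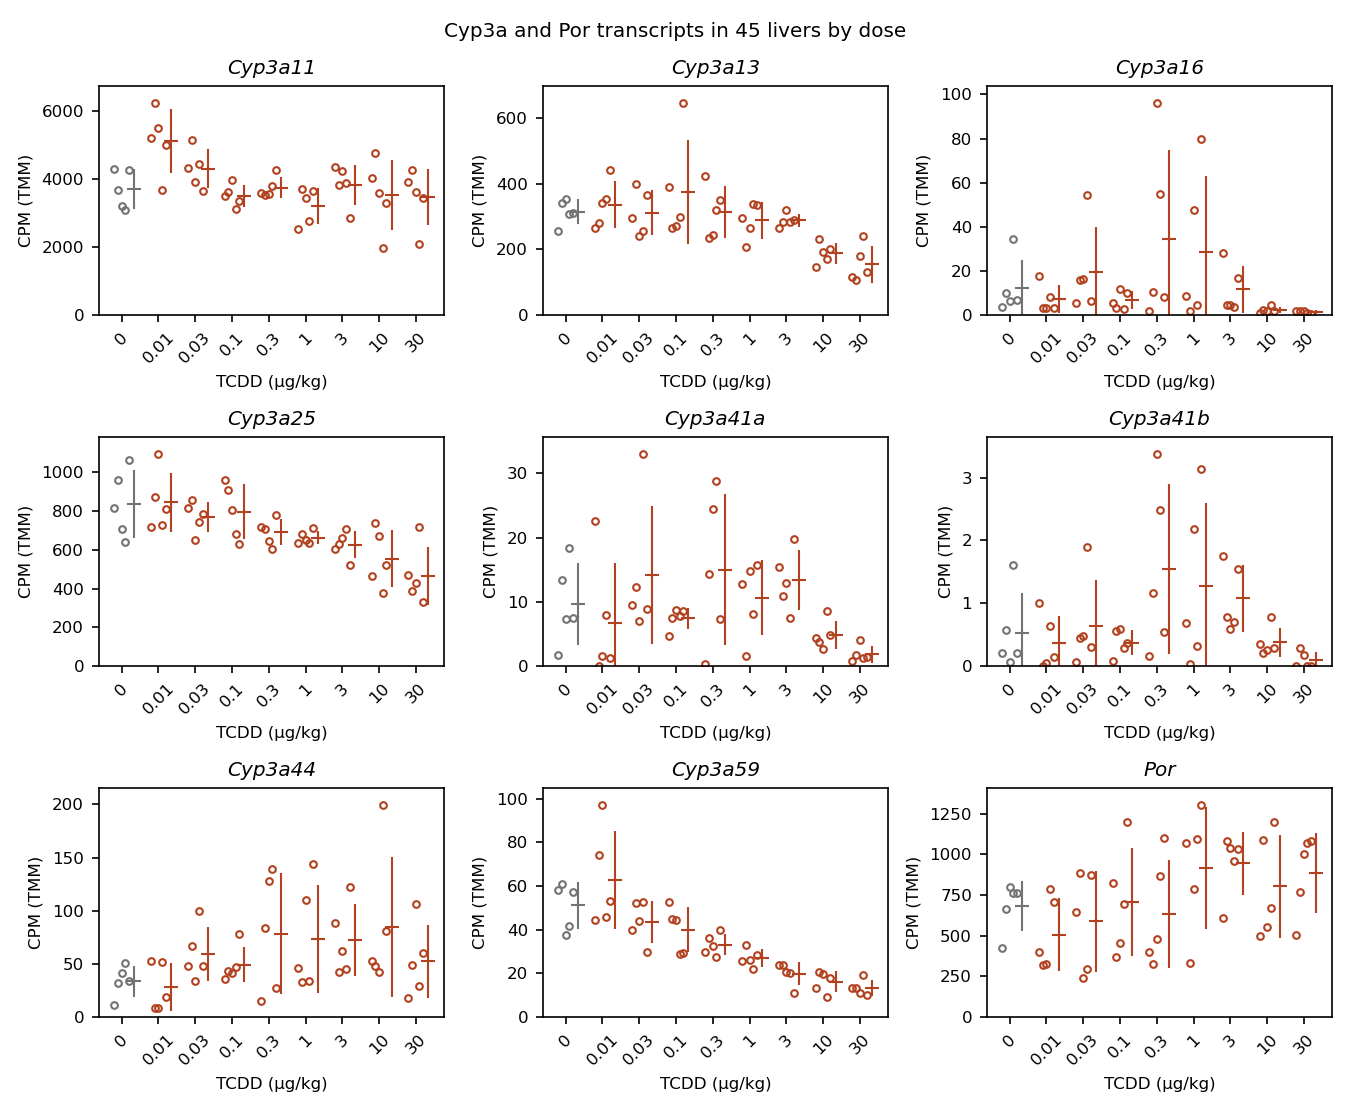
CPM of the 9 genes (y axis, linear from 0) in each liver (open circles) by TCDD dose in µg/kg (x axis, evenly spaced, 0 is vehicle), with the mean and SD of 5 mice as a dash and bar beside them, bars being clipped at 0. *Cyp3a59* declines over the whole dose range, *Cyp3a13* and *Cyp3a25* at the highest doses, and *Cyp3a16*, *Cyp3a41a*, *Cyp3a41b* and *Cyp3a44* scatter widely between mice of 1 dose.

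Levels are given as CPM, the reads of a gene per 1000000 reads on genes after scaling libraries by edgeR's TMM factors. *Cyp1a1*, the AhR target used to check the treatment, rose from 7.50 ± 6.32 CPM in the vehicle group to 7627 ± 1186 CPM at 30 µg/kg (SD, n = 5 mice each). Libraries held 11767284 to 56509899 reads on genes, with a median of 17225047. Without the TMM factors, library size alone moved the median log2 fold change of all genes at 30 µg/kg from 0.019 to 0.23. The split of called genes then went from 2700 higher and 2467 lower to 4993 higher and 1222 lower. The 5 genes called lower at 30 µg/kg were also called lower on that scale, with values from -0.64 to -2.83, while the difference of *Cyp3a11* turned to 0.13. The labels name neither sequencing pools nor cages, so no comparison within a batch was made.

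All 9 genes lie on chromosome 5 of GRCm38. *Por* (ENSMUSG00000005514, chr5:135670033-135735326, plus strand) and *Cyp3a13* (ENSMUSG00000029727, chr5:137892932-137921619, minus strand) stand apart from the main cluster. On the minus strand of the cluster, in order, are *Cyp3a16* (ENSMUSG00000038656, chr5:145436309-145469723), *Cyp3a41b* (ENSMUSG00000075552, chr5:145558664-145584730), *Cyp3a41a* (ENSMUSG00000075551, chr5:145694049-145720136), *Cyp3a44* (ENSMUSG00000054417, chr5:145773983-145805874), *Cyp3a11* (ENSMUSG00000056035, chr5:145854426-145879964) and *Cyp3a25* (ENSMUSG00000029630, chr5:145977194-146009618). *Cyp3a59* (ENSMUSG00000061292, chr5:146079257-146113287) follows on the plus strand. No exon of the 9 genes overlaps an exon of another annotated gene.

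Reads of 50 bases cannot always tell these paralogs apart, and the counting step dropped every read with several possible positions. Of the 50-base windows in the exons of *Cyp3a41a*, 98.6% also occurred letter for letter in another gene, which left 28 of 2011 windows of its own. For *Cyp3a41b* the share was 93.5%, with 131 windows of its own. It was 30.0% for *Cyp3a59*, 26.8% for *Cyp3a25*, 26.4% for *Cyp3a44*, 10.7% for *Cyp3a16* and 6.73% for *Cyp3a11*. *Cyp3a13* and *Por* shared no window. When up to 2 mismatches within the *Cyp3a* genes were allowed, the shares rose to 88.1% for *Cyp3a44*, 84.9% for *Cyp3a59*, 80.2% for *Cyp3a25*, 52.2% for *Cyp3a16* and 25.6% for *Cyp3a11*. The counts of *Cyp3a41a* and *Cyp3a41b* therefore rest on a few bases, and their levels are uncertain.

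**Figure D2:**
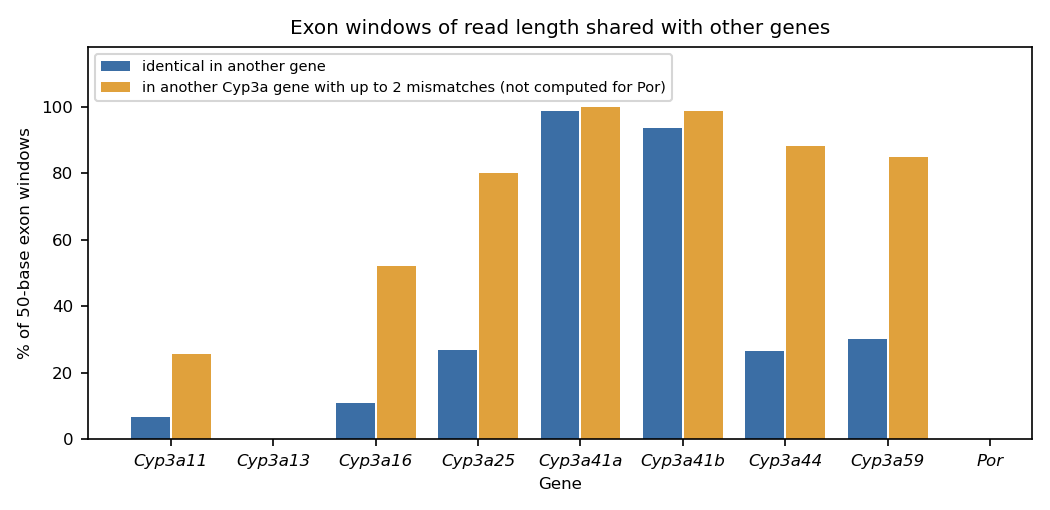
Percent of the 50-base exon windows of each gene (y axis) that occur in another gene without a mismatch (blue) or in another *Cyp3a* gene with up to 2 mismatches (orange). Nearly all windows of *Cyp3a41a* and *Cyp3a41b* are shared, and without a mismatch 0% of those of *Cyp3a13* and *Por*. With up to 2 mismatches the share is 0.14% for *Cyp3a13*, and it was not computed for *Por*.

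The transcripts of *Cyp3a41a* and *Cyp3a41b* were 99.9% identical over 2060 aligned bases. The alignment ran in 2 blocks with a gap between them. The 2 substitutions, both in coding exons, are shown because reads that separate the genes must cross them, the gap or the transcript ends. Most windows across the *Cyp3a41a* bases also occur in another gene, since only 28 of its windows are its own. Positions are counted from 1 at the 5′ end of the *Cyp3a41a* transcript, the *Cyp3a41a* base comes first, and the differing base is in capitals. G207A lies in exon 2, at base 145717970 of chromosome 5, and G423T in exon 5, at base 145709141. The stretches are from the GENCODE transcripts on GRCm38, on the minus strand of the genome.
Cyp3a41a, G207A: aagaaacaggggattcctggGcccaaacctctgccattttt
Cyp3a41b, G207A: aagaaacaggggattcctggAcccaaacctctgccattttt
Cyp3a41a, G423T: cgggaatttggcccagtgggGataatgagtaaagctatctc
Cyp3a41b, G423T: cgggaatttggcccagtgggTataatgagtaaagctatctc

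By sequence the family holds a close pair and a close block. The *Cyp3a25* and *Cyp3a59* transcripts were 97.0% identical. *Cyp3a11*, *Cyp3a16*, *Cyp3a41a*, *Cyp3a41b* and *Cyp3a44* were 91.6% to 99.9% identical to each other. Within this block *Cyp3a41a* was 95.0% identical to *Cyp3a44* and 94.5% to the abundant *Cyp3a11*. Identity of *Cyp3a13* to the others did not pass 72.6%. The 250 bases upstream of the RefSeq start sites were 95.6% identical between *Cyp3a25* and *Cyp3a59*, 95.9% between *Cyp3a16* and *Cyp3a44* and 94.4% between *Cyp3a41a* and *Cyp3a44*. They are printed for *Cyp3a25* with *Cyp3a59* and for *Cyp3a41a* with *Cyp3a44*, pairs that moved together from mouse to mouse as described further on, and for *Por*. The sequences are from RefSeq on GRCm38.p6, read 5′ to 3′ on the strand of the gene. Capitals mark GCGTG, the core of the dioxin response element bound by AhR, and the nuclear receptor half-sites AGGTCA and AGTTCA, each on either strand.
Cyp3a25, chr5:146009619-146009868, minus strand: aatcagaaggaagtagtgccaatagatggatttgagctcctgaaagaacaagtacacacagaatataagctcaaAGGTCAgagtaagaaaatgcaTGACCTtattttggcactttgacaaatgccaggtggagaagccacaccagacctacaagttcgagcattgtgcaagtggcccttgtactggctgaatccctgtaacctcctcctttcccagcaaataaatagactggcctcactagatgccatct
Cyp3a59, chr5:146079008-146079257, plus strand: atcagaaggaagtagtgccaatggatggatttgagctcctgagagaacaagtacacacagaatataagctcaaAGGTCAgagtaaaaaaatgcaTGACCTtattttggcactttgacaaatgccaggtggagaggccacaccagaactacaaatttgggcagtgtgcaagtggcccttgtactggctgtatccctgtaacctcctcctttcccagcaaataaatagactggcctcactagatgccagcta
Cyp3a41a, chr5:145720137-145720386, minus strand: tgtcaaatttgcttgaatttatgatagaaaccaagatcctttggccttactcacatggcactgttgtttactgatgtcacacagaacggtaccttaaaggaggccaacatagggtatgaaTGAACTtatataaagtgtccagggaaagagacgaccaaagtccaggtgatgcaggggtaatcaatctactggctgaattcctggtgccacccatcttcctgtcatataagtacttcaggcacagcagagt
Cyp3a44, chr5:145805875-145806124, minus strand: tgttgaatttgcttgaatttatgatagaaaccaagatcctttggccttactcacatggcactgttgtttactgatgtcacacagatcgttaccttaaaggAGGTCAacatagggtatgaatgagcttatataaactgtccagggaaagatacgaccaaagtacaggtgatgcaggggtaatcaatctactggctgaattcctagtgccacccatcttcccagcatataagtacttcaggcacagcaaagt
Por, chr5:135688895-135689144, plus strand: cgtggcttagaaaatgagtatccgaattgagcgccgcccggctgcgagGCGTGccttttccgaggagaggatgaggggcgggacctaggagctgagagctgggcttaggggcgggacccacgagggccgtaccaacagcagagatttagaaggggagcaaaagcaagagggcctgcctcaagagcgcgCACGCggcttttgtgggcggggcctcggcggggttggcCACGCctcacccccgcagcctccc

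All 9 genes matched an upstream window. GCGTG was found in 1 of the 9, *Por*, which held 3 copies, and in 28.2% of the 32851 windows of the same length in the RefSeq table. AGGTCA was found in *Cyp3a11*, *Cyp3a25*, *Cyp3a44* and *Cyp3a59* and in 14% of all windows. AGTTCA was found in *Cyp3a11*, *Cyp3a41a* and *Cyp3a41b* and in 11.8% of all. *Cyp3a25* and *Cyp3a59* also held 2 copies of AGNTCA in direct repeat 1 base apart, an arrangement that overlaps their AGGTCA and that 0.2% of all windows held. TATAAA was found in *Cyp3a11*, *Cyp3a16*, *Cyp3a41a*, *Cyp3a41b* and *Cyp3a44* and in 12.4% of all. An everted repeat of AGNTCA with 6 bases between the copies was in none of the 9 windows, and in only 10 of all 32851. Close paralogs have nearly identical upstream windows, so their matches are not independent and the counts show no enrichment. A match to these letters is a description and not a measured binding site.

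*Cyp3a59* changed earliest and fell most steadily. The 5 vehicle livers held 58.2, 61.1, 37.6, 41.7 and 57.3 CPM. At 1 µg/kg the values were 25.9, 33.0, 26.2, 21.9 and 28.4 CPM, all below the lowest vehicle liver. At 30 µg/kg they were 13.3, 13.2, 11.1, 19.2 and 10.1 CPM, and the 2 groups lay far apart. Group means were 51.2 ± 10.7 CPM in vehicle, 62.9 ± 22.5 at 0.01 µg/kg, 43.6 ± 9.58 at 0.03, 40.02 ± 10.4 at 0.1, 33.2 ± 4.97 at 0.3, 27.1 ± 4.04 at 1, 19.9 ± 5.14 at 3, 16.1 ± 4.80 at 10 and 13.4 ± 3.54 at 30 (SD, n = 5). From 0.01 µg/kg on, each group mean was below that of the next lower dose, though no single step between neighbouring doses passed the test. Against vehicle the log2 fold change was -0.92 ± 0.22 at 1 µg/kg (SE, edgeR adjusted p = 0.0169), -1.37 ± 0.22 at 3 µg/kg (edgeR adjusted p = 3.61e-05), -1.67 ± 0.23 at 10 µg/kg (edgeR adjusted p = 4.07e-07) and -1.94 ± 0.23 at 30 µg/kg (edgeR adjusted p = 9.49e-09). The call at 1 µg/kg was lost without vehicle mouse 1, vehicle mouse 2 or mouse 4 of that dose, with an adjusted p of up to 0.0622 in edgeR, whereas the calls from 3 µg/kg up were kept in all 10 fits with a mouse left out. The groups did not overlap with vehicle at 1, 3, 10 and 30 µg/kg, doses at which 4.74%, 7.96%, 14.2% and 19.9% of all genes did not overlap.

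*Cyp3a25*, its neighbour and close paralog, was the more abundant of the pair in vehicle livers, at 402 ± 83.8 CPM per kilobase of exon against 25.6 ± 5.36 (SD, n = 5), and fell less. The vehicle livers held 817, 963, 707, 642 and 1062 CPM. At 30 µg/kg the values were 469, 388, 427, 720 and 333 CPM. Of the 5 livers, 4 lay below every vehicle liver, and mouse 4, at 720 CPM, lay inside the vehicle range. The log2 fold change was -0.59 ± 0.16 at 10 µg/kg (SE, edgeR adjusted p = 0.00914) and -0.84 ± 0.16 at 30 µg/kg (edgeR adjusted p = 0.000101). Both calls were kept in all 10 fits with a mouse left out. The mean log2 ratio of *Cyp3a59* to *Cyp3a25* reads was -4.04 ± 0.18 in vehicle, -4.39 ± 0.14 at 0.3, -5.02 ± 0.35 at 3 and -5.11 ± 0.16 at 30 µg/kg (SD, n = 5). It was lower than in vehicle at the 5 doses from 0.3 to 30 µg/kg by the exact permutation test (differences from -0.35 to -1.09, adjusted p = 0.0127 each), and at 0.1 µg/kg it missed the threshold (-0.30, exact permutation test, adjusted p = 0.0635). The 5 calls were kept in all 10 tests with a mouse left out. The ratio was chosen after the values of both genes were seen, so its test is not independent of them. Reads that the pair share were not counted for either.

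*Cyp3a13* has reads that no other gene shares, so its level is free of that limit. By transcript sequence it is the most divergent of the 8 *Cyp3a* genes. The vehicle livers held 257, 342, 354, 309 and 312 CPM. At 10 µg/kg the values were 147.5, 231, 190.5, 170 and 202 CPM and at 30 µg/kg 116, 106, 180, 241.5 and 130.5 CPM, each below the lowest vehicle liver. Up to 3 µg/kg the group means stayed between 288 and 374.5 CPM, with 1 liver at 0.1 µg/kg reaching 645.5 CPM. The log2 fold change was -0.74 ± 0.21 at 10 µg/kg (SE, edgeR adjusted p = 0.0107) and -1.02 ± 0.21 at 30 µg/kg (edgeR adjusted p = 0.000196), and both were called in all 10 fits with a mouse left out. Between 3 and 10 µg/kg the difference was -0.61 ± 0.21, with an unadjusted p of 0.00508 and an adjusted p of 0.212 in edgeR.

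**Figure D3:**
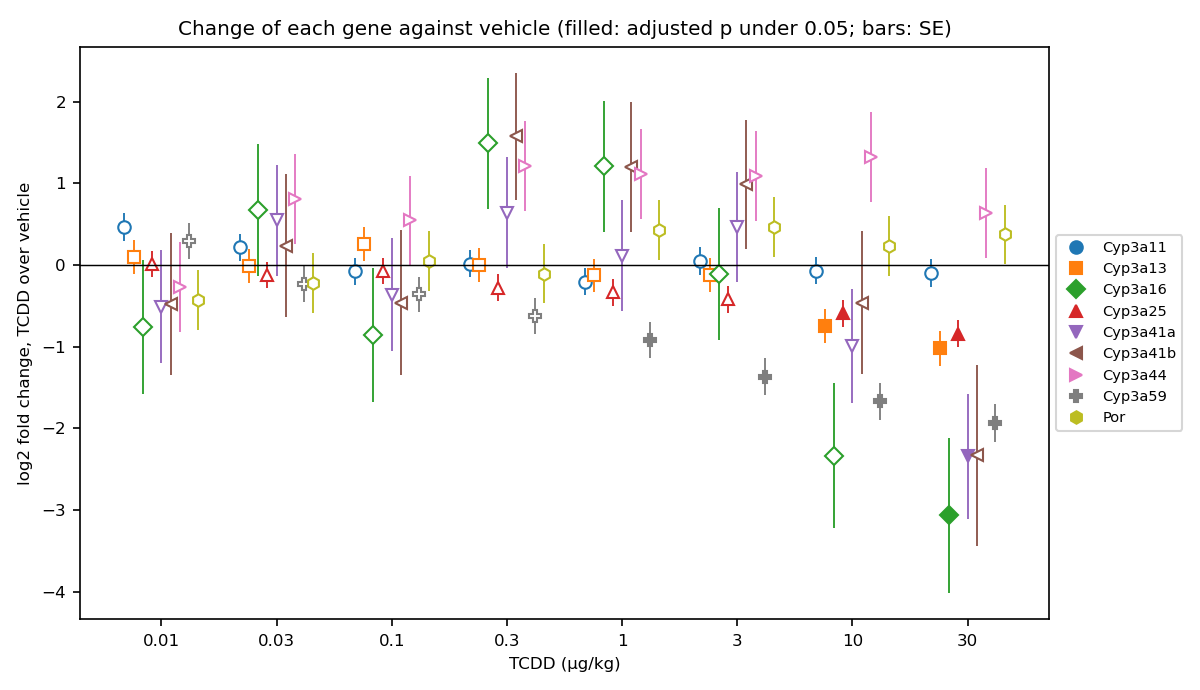
Log2 fold change of each of the 9 genes against vehicle (y axis) at 8 TCDD doses in µg/kg (x axis, evenly spaced), with SE bars and filled symbols where the edgeR adjusted p was under 0.05. Filled symbols begin at 1 µg/kg with *Cyp3a59* and all lie below 0, and the bars of *Cyp3a16*, *Cyp3a41a*, *Cyp3a41b* and *Cyp3a44* are several times as long as those of *Cyp3a11*.

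The female-predominant members varied widely between mice given the same dose. *Cyp3a16* measured 3.82, 9.92, 6.47, 34.5 and 6.72 CPM in the vehicle livers and 2.03, 1.95, 1.91, 0.724 and 0.321 CPM at 30 µg/kg, where every liver was below the lowest vehicle liver. At 0.3 µg/kg it ranged from 2.04 to 96.1 CPM. Its between-mouse coefficient of variation in the edgeR fit was 84.5%, against 18.8% for *Cyp3a11*. The 8.39-fold lower level at 30 µg/kg passed the test (edgeR adjusted p = 0.0122), as DESeq2 also found. Without vehicle mouse 4, the highest of its group, the call was lost (log2 fold change of -2.20, edgeR adjusted p = 0.0867). At 10 µg/kg the difference of -2.34 ± 0.89 missed the threshold in edgeR (adjusted p = 0.0667) and passed it in DESeq2 (adjusted p = 0.0322).

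*Cyp3a41a* measured 1.77, 13.4, 7.27, 18.4 and 7.48 CPM in the vehicle livers and 0.766, 1.66, 4.10, 1.23 and 1.36 CPM at 30 µg/kg. Vehicle mouse 1 lay within the range of the treated group, so the groups overlapped. The log2 fold change of -2.34 ± 0.76 was called (edgeR adjusted p = 0.0173), but the call was lost without vehicle mouse 4 (edgeR adjusted p = 0.0598) and when p-values were adjusted over all doses together (adjusted p = 0.0600 in edgeR). *Cyp3a41b* had 635 reads in all 45 livers. Its vehicle livers held 3, 9, 1, 26 and 4 reads, and at 30 µg/kg 3 of the 5 livers held 0 and the others 5 reads each, at 0.286 and 0.177 CPM. The difference was not called (edgeR adjusted p = 0.111). Both genes rest on the few unshared windows described above.

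Group means of *Cyp3a44* lay above that of vehicle at every dose except 0.01 µg/kg and were highest at 10 µg/kg. It measured 11.5, 31.7, 41.8, 50.5 and 33.8 CPM in the vehicle livers. At 10 µg/kg the values were 53.1, 47.8, 42.2, 199.5 and 81.1 CPM, and at 30 µg/kg 17.9, 49.1, 106.7, 29.4 and 59.9 CPM. Group means were 33.8 ± 14.6 CPM in vehicle, 78.5 ± 56.6 at 0.3, 84.7 ± 65.9 at 10 and 52.6 ± 34.4 at 30 µg/kg (SD, n = 5). No dose passed the test, and the log2 fold change was 1.32 ± 0.55 at 10 µg/kg (edgeR adjusted p = 0.0990) and 0.64 ± 0.55 at 30 µg/kg (edgeR adjusted p = 0.416). It was called higher at 10 µg/kg only when vehicle and that dose were fitted alone (1.31, edgeR adjusted p = 0.0400).

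*Cyp3a11*, a main hepatic P450 for drugs and steroids and the standard PXR target in mouse, changed little. The vehicle livers held 4298, 3661, 3197, 3081 and 4270 CPM, and those at 30 µg/kg 3914, 4258, 3618, 2091 and 3425 CPM. Its highest mean was at the lowest dose, 5117 ± 936 CPM at 0.01 µg/kg against 3702 ± 574 CPM in vehicle (SD, n = 5), with 4 of 5 livers above every vehicle liver. That difference of 0.47 ± 0.17 on the log2 scale had an unadjusted p of 0.00813 and an adjusted p of 0.353 in edgeR. Over the other doses the means lay between 3212 CPM at 1 µg/kg and 4294 CPM at 0.03 µg/kg. The test of all doses together called it (edgeR adjusted p = 0.0367), but not on library size alone (edgeR adjusted p = 0.106), and 7 of the 45 fits with a mouse left out lost the call. At 30 µg/kg mouse 4 had the lowest *Cyp3a11* of its group, 2091 CPM, and the highest *Cyp3a25* and *Cyp3a13*.

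*Por* varied more between mice than *Cyp3a11*, *Cyp3a13*, *Cyp3a25* and *Cyp3a59*, with a coefficient of variation of 39.6% in the edgeR fit against 18.4% to 24.1%. The vehicle livers held 422, 667, 801, 763 and 762 CPM, and those at 30 µg/kg 504, 769, 1002, 1067 and 1083 CPM. The groups overlapped at every dose. Group means were lowest at 0.01 µg/kg (506 ± 223 CPM) and highest at 3 µg/kg (944 ± 192 CPM), against 683 ± 154 CPM in vehicle (SD, n = 5). The largest difference from vehicle above 0 was 0.47 ± 0.37 at 3 µg/kg (edgeR adjusted p = 0.510), and the test of all doses was not passed (edgeR adjusted p = 0.371). No value here shows that *Por* did not change, since an SE of 0.37 leaves room for differences of that size in either direction.

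Between neighbouring doses edgeR called none of the 9 genes in any of the 7 steps. At an unadjusted p under 0.05 there were 7 of the 63 gene-by-step tests, a threshold at which the share of all genes was not counted. They included *Cyp3a13*, *Cyp3a16* and *Cyp3a41a*, all lower at 10 than at 3 µg/kg. *Cyp3a59* was lower at 0.03 than at 0.01 µg/kg and lower at 3 than at 1 µg/kg. In the other direction, *Cyp3a16* and *Cyp3a41b* were higher at 0.3 than at 0.1 µg/kg, by 2.35 ± 0.83 and 2.03 ± 0.79 (log2 fold change and SE). Among all genes the shares called were 0%, 0.0115%, 0.0458%, 0.115%, 0.178%, 0.784% and 0.613% from the lowest step to the highest. The order of group means within the series is thus given for description.

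The summed *Cyp3a* level was not distinguishable from vehicle at any dose. It was 4962 ± 682 CPM in vehicle, 6404 ± 989 CPM at 0.01 µg/kg and 4153 ± 664 CPM at 30 µg/kg (SD, n = 5). By a two-sided exact permutation test of 5 against 5 mice, whose smallest possible p is 0.007937, the p was 0.0476 at 0.01 µg/kg and 0.0952 at 30 µg/kg, and the adjusted p over the 8 doses was 0.360 for both. Without *Cyp3a11* the sum was 1260 ± 176 CPM in vehicle, 1032 ± 42.8 at 3, 852 ± 140 at 10 and 692 ± 194 at 30 µg/kg. The 3 differences, -0.29, -0.57 and -0.87 on the log2 scale, passed the exact permutation test (adjusted p = 0.0212 each). In vehicle livers *Cyp3a25* gave 838 ± 175 CPM of this smaller sum and *Cyp3a13* 315 ± 37.3 CPM. Both were called lower at 10 and 30 µg/kg in edgeR, so the test of the smaller sum is not independent of those calls.

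The log2 ratio of summed *Cyp3a* reads to *Por* reads was 2.89 ± 0.51 in vehicle and 2.27 ± 0.65 at 30 µg/kg (SD, n = 5). It was highest at 0.01 µg/kg, 3.76 ± 0.83, where *Cyp3a11* was highest and *Por* lowest. None of the 8 doses differed from vehicle by the exact permutation test (adjusted p from 0.402 to 0.992). Without *Cyp3a11* in the sum, the ratio was 0.91 ± 0.39 in vehicle (0.53 to 1.45) and -0.34 ± 0.49 at 30 µg/kg (-1.02 to 0.29), and those groups did not overlap. The difference of -1.25 reached the smallest p the exact permutation test can give, 0.007937, and its adjusted p was 0.0635, the lowest that a single dose at that limit can have over 8 doses. At 3 and 10 µg/kg the differences were -0.75 each, with overlapping groups (exact permutation test, adjusted p = 0.0847 each). The ratio without *Cyp3a11* is likewise not independent of the calls of *Cyp3a25* and *Cyp3a13*.

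Per kilobase of exon, *Cyp3a11* made up 56.3 ± 3.37% of the *Cyp3a* reads in vehicle livers and 67.9 ± 11.7% at 30 µg/kg (SD, n = 5), a difference that did not pass the exact permutation test (adjusted p = 0.114 over the 8 genes). It passed when mouse 4 of the 30 µg/kg group was left out (16.7 percentage points, exact permutation test, adjusted p = 0.0212). The *Cyp3a59* share went from 1.97 ± 0.23% to 0.686 ± 0.24% and the *Cyp3a16* share from 0.599 ± 0.69% to 0.0779 ± 0.041%, and both passed (exact permutation test, adjusted p = 0.0318 each). The *Cyp3a25* share was 31.0 ± 2.80% and 23.2 ± 9.59%. The mouse that stood apart at 30 µg/kg had 47.5% *Cyp3a11* and 40.03% *Cyp3a25*. Which gene ranks where depends on the length used. With only unshared 50-base windows as the length, *Cyp3a41a* made up 18.1% in vehicle and 5.27% at 30 µg/kg in place of 0.382% and 0.0884%, and *Cyp3a11* 43.0% and 60.8%. With the longest coding transcript as the length, *Cyp3a11* made up 73.0% in vehicle and 81.1% at 30 µg/kg. *Cyp3a25* then made up 19.3% and 13.8%.

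**Figure D4:**
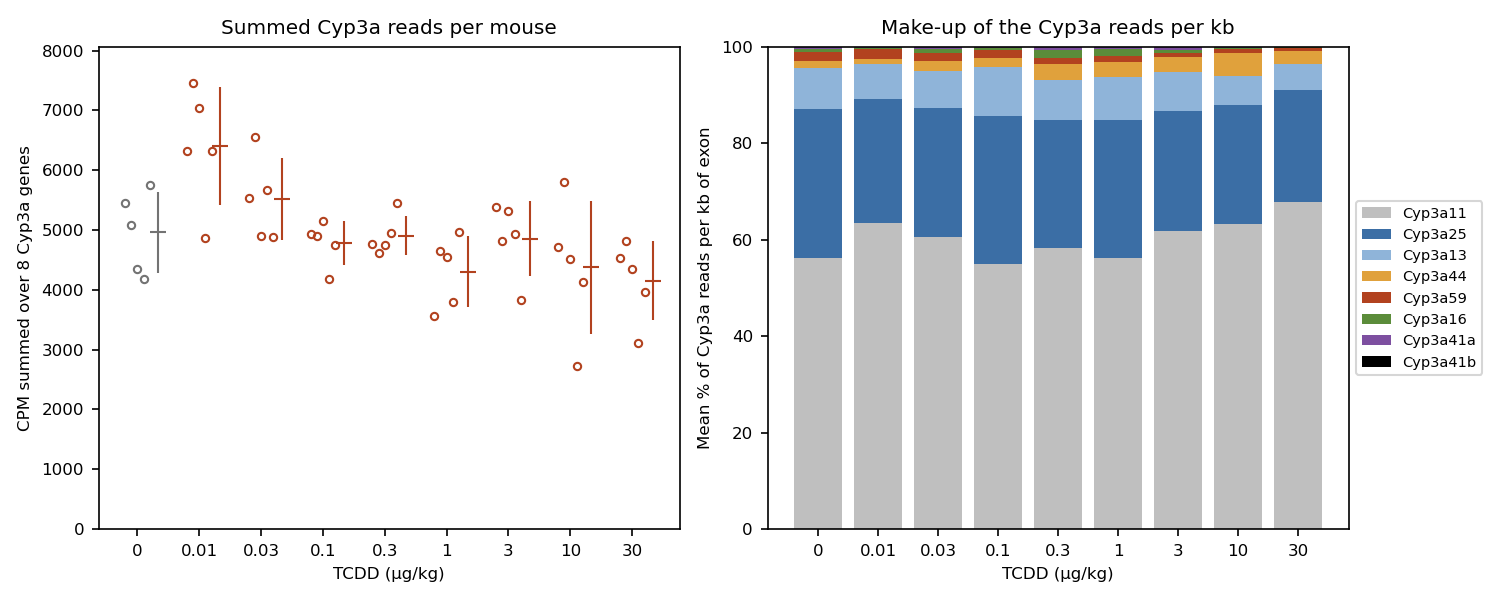
Left, CPM summed over the 8 *Cyp3a* genes (y axis, from 0) in each liver (circles), with the mean and SD of 5 mice, by TCDD dose in µg/kg (x axis, 0 is vehicle). Right, mean percent of the *Cyp3a* reads per kilobase of exon held by each gene (stacked bars), in which *Cyp3a11* goes from 56.3% in vehicle to 67.9% at 30 µg/kg and the band of *Cyp3a59* narrows.

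Within dose groups, 3 sets of genes moved together from mouse to mouse. Pearson's r of log2 CPM over the 45 livers, after the mean of each group was removed, lay between 0.70 and 0.86 for the 6 pairs among *Cyp3a16*, *Cyp3a41a*, *Cyp3a41b* and *Cyp3a44*. In 5 of the 9 groups the same mouse was highest in all 4 of these genes, and in 2 groups the same mouse was lowest in all 4. The vehicle liver with 34.5 CPM of *Cyp3a16*, for example, was also highest in *Cyp3a41a*, *Cyp3a41b* and *Cyp3a44*. *Cyp3a25* and *Cyp3a59* had an r of 0.79, and *Cyp3a13* and *Por* one of 0.71. *Cyp3a44* ran the other way to *Cyp3a25* (-0.49) and *Cyp3a59* (-0.50). The points of each pair share their library and its scaling, and pairs of close paralogs can also share misassigned reads. *Cyp3a13* and *Por* share no 50-base window. What moved these genes between mice was not tested.

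**Figure D5:**
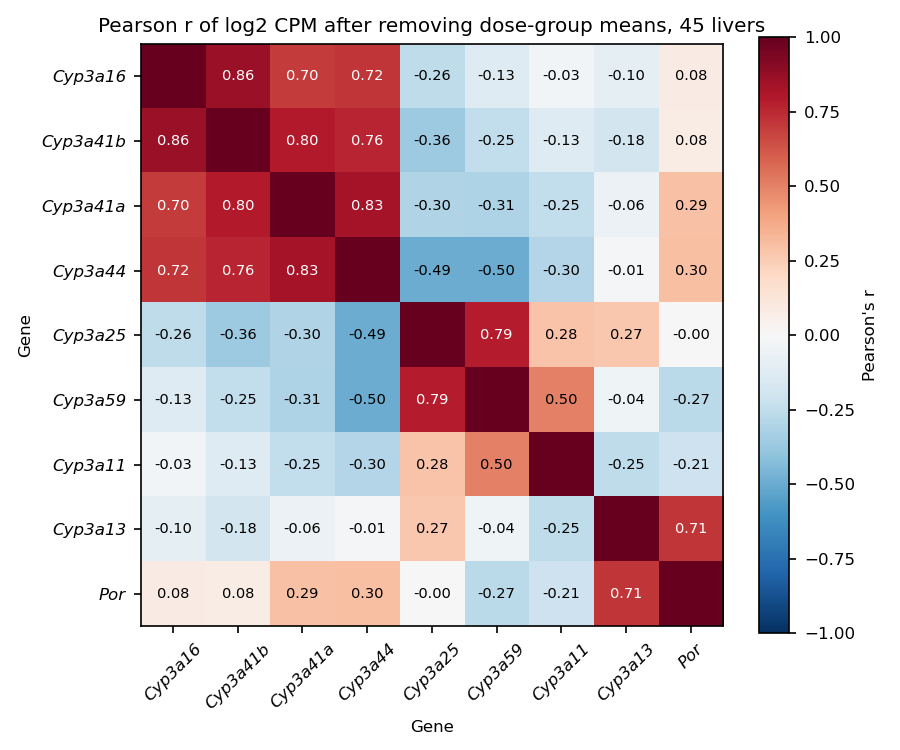
Pearson's r of log2 CPM between each pair of the 9 genes (both axes) over 45 livers, after the mean of each dose group was removed, on a color scale from -1 to 1. A block of 4 genes (*Cyp3a16*, *Cyp3a41b*, *Cyp3a41a*, *Cyp3a44*) has r from 0.70 to 0.86, and the pairs *Cyp3a25* with *Cyp3a59* and *Cyp3a13* with *Por* stand out at 0.79 and 0.71.

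Over all 45 livers, dose effects included, the genes outside the family most like each called member were found among 12404 genes with a mean of at least 1 CPM. *Cyp3a59* was most like *Ctsl*, a lysosomal protease (Pearson's r = 0.92), and *Adam11* (0.90). *Cyp3a13* was most like *Cd302*, a C-type lectin receptor (0.93), and *Fgf1*, a growth factor (0.91). *Cyp3a25* was most like *Azgp1*, a secreted glycoprotein (0.86), and *Il1rap*, the interleukin-1 receptor accessory protein (0.85). *Cyp3a16* and *Cyp3a41a* both had *Cyp2c69*, another P450, among their 2 nearest (0.72 and 0.67), and *Cyp3a16* also had *Klhl13* (0.73). *Cyp3a41b* had *St3gal6* (0.59) among its 2 nearest. For *Cyp3a11* the nearest, *Zcwpw1*, reached 0.57 and *Szrd1* 0.52. These are descriptions over livers that share dose groups and carry no test.

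Genes that serve or control the family moved unevenly at 30 µg/kg. Of 19 genes of P450 electron transfer and heme supply, 7 were lower, 1 was higher and 11 were not called, with a median log2 fold change of -0.16 against 0.019 for all genes tested. Called genes made up 42.1% of this list. *Alad*, which makes porphobilinogen on the way to heme, was lower (-0.92 ± 0.14, log2 fold change and SE), as were the heme-binding *Pgrmc2* (-0.85 ± 0.12) and *Cyb5b*, an outer mitochondrial membrane cytochrome b5 (-0.67 ± 0.17). *Hmox1*, which breaks heme down, was higher (1.01 ± 0.29). Of 22 transcription factors and cofactors that act on *Cyp3a* genes, 6 were lower and 0 higher, or 27.3% called against 29.6% of all genes. They included *Cebpa* (-0.90 ± 0.16), *Foxa3* (-0.87 ± 0.27), the coactivator *Ppargc1a* (-0.78 ± 0.24) and the glucocorticoid receptor gene *Nr3c1* (-0.54 ± 0.09). The receptor genes themselves, named after their values were seen, were at -0.12 ± 0.24 for *Nr1i2*, which encodes PXR, and -0.21 ± 0.27 for *Nr1i3*, which encodes CAR (edgeR adjusted p = 0.754 and 0.6004).

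Of 25 PXR and CAR targets outside the family, 7 were higher, 7 lower and 11 not called (median 0.086). *Gadd45b* rose by 2.18 ± 0.53, the efflux transporter *Abcc4* by 2.01 ± 0.35 and the glucuronosyltransferase *Ugt1a9* by 1.83 ± 0.20, while the noncoding RNA *Meg3* fell (-1.89 ± 0.38). *Ugt1a9* shares exons with other *Ugt1a* genes, which makes its count uncertain. Of 23 genes known to be higher in female liver, 11 were lower and 2 higher, with a median of -0.75. *Sult3a1*, a sulfotransferase, fell (-5.76 ± 0.54), as did *Ntrk2* (-3.115 ± 0.69) and *Cyp2a22* (-2.60 ± 0.34), while *Prom1* rose by 2.46 ± 0.45. Of 19 genes known to be higher in male liver, 4 were higher, 5 lower and 10 not called (median -0.025). They included *Slco1a1*, an organic anion transporter, *Susd4* and *Elovl3*, which were at -6.80 ± 1.11, -4.16 ± 0.39 and -3.09 ± 0.75. In growth hormone signalling 1 of 10 genes was called, the receptor gene *Ghr*, at -1.23 ± 0.13 (edgeR adjusted p = 3.03e-10). The one further cluster gene tested, *Cyp3a57*, was not called (-0.70 ± 0.52) at under 1 CPM. All 9 genes of an AhR battery were higher, with a median of 3.97. Shares called were 56% for PXR and CAR targets, 56.5% for the female list, 47.4% for the male list and 10% for growth hormone signalling. Of all genes tested, 29.6% were called.

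Cell type markers moved at the same dose, at which 29.6% of all genes tested were called. Of 9 hepatocyte markers 7 were lower and 0 higher, among them *Apoa1* (-1.67 ± 0.23) and *Cps1* (-0.99 ± 0.21), yet *Alb* was not called (-0.08 ± 0.11), and the summed level of the list was 128900 to 162900 CPM in vehicle and 112500 to 165500 CPM at 30 µg/kg. Pericentral genes went both ways, 4 higher and 3 lower of 11, and so did periportal genes, 2 higher and 5 lower of 12. Called markers of other cells were higher. Of 11 macrophage markers 4 were higher and 0 lower, or 36.4% called, near the share of all genes. Their summed level was 179 to 285 CPM in vehicle and 160 to 471 CPM at 30 µg/kg, which overlap. Of 11 lymphocyte and neutrophil markers 6 were higher (9.35 to 17.2 CPM against 18.3 to 40.4 CPM), of 9 stellate cell and fibroblast markers 5 (280 to 396 CPM against 532 to 775 CPM) and of 9 endothelial markers 6 (191 to 243 CPM against 227 to 363 CPM). Cholangiocyte markers were called in 0 of 7 genes (62.6 to 85.8 CPM against 65.1 to 82.4 CPM). The part of these markers in the lower levels of *Cyp3a13*, *Cyp3a16*, *Cyp3a25*, *Cyp3a41a* and *Cyp3a59* was not tested.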

How the data were processed

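Counts deposited by the authors were analysed for 45 livers, as whole reads per Ensembl gene without normalization. The authors aligned reads of 50 bases with Bowtie and TopHat 1.4.1 to GRCm38 and counted them with HTSeq 0.6.1, which leaves out reads with more than 1 alignment. The strand setting is not given in the sources used here. Lines for reads on no gene or on more than 1 gene, together 10.7% to 18.4% of uniquely aligned reads, stayed out of library sizes. Of 39179 gene identifiers, 37607 matched a symbol.

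Groups came from the sample labels. The 9 genes and all gene lists were chosen with earlier results of these data known. The labels do not state that libraries came from separate animals, though the study's methods give 5 animals per group, and no pair of libraries within a group was alike within sampling noise. Genes with more than 4 reads in any liver were tested with edgeR 4.0.16 in R 4.3.3 (TMM, 1 coefficient per group, all 45 livers in 1 fit, quasi-likelihood test, Benjamini-Hochberg adjustment within each dose). The SE printed with a log2 fold change is the absolute log2 fold change divided by the square root of that test's F. The methods' semi-parametric normalization and empirical Bayes procedure could not be repeated. Sums, ratios and shares were compared by two-sided exact permutation tests over every arrangement of the mice. The fit was tested on simulated counts in which every gene had the same spread between mice. That spread was far smaller than those of *Cyp3a16*, *Cyp3a41a*, *Cyp3a41b* and *Cyp3a44*, so the simulation does not cover these genes. Shared windows were counted on GENCODE transcripts, a later release than the authors' annotation, and upstream sequences came from RefSeq.

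Named genes were the 9 genes, up to 4 called genes of each list with the largest change at 30 µg/kg, *Cyp1a1*, and for each gene called over all doses the 2 other genes with the highest Pearson's r, not all of which are reported here. Alternatives were DESeq2's size factors or none, no filter or filterByExpr, DESeq2 1.42.0, fits of vehicle and 1 dose, adjustment over all doses, other lengths, and each mouse left out. Genes with few reads, *Cyp3a41b* above all, have the least precise values.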

Additional observations from a re-analysis of the deposited data

Results flagged for a closer look

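Of 99 groups of 5 livers examined, over the 9 genes, the summed *Cyp3a* level and the *Cyp3a* to *Por* ratio, 9 held a liver whose gap to the nearest of its group exceeded Dixon's 95% critical value. The rate of about 1 in 20 groups by chance assumes normally distributed values, which was not checked here, so 9 cannot be set against it. The groups of related genes are also not independent. Mouse 4 of the 0.03 µg/kg group was set apart in 3 genes, with 54.4 CPM of *Cyp3a16* (the others 5.43 to 16.5), 33.0 CPM of *Cyp3a41a* (7.08 to 12.4) and 1.90 CPM of *Cyp3a41b* (0.0715 to 0.472). Vehicle mouse 4 was set apart in *Cyp3a16*, at 34.5 CPM (3.82 to 9.92). Mouse 4 of the 10 µg/kg group was set apart in *Cyp3a44*, at 199.5 CPM (42.2 to 81.1), and in *Cyp3a41b*, at 0.783 CPM from 18 reads (0.211 to 0.357). Mouse 5 of the 0.1 µg/kg group had 78.2 CPM of *Cyp3a44* (36 to 47.2), and mouse 3 of the 30 µg/kg group 4.10 CPM of *Cyp3a41a* (0.766 to 1.66). One liver was low: mouse 1 of the 3 µg/kg group had 609.6 CPM of *Por* (959 to 1080).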

How the results depend on the processing

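No paired analysis was possible because the labels carry no replicate numbers that link mice across groups. No call among the 9 genes changed direction under any alternative run. With a mouse left out, the number of the 9 genes called ranged from 0 to 1 at 1 µg/kg, from 3 to 5 at 30 µg/kg and from 5 to 7 over all doses, and the 3 at 30 µg/kg, reached without vehicle mouse 4, lacked *Cyp3a16* and *Cyp3a41a*. Counts at 3 and 10 µg/kg stayed at 1 and 3. With vehicle and 10 µg/kg fitted alone, 5 genes were called, *Cyp3a16* and *Cyp3a44* in addition. Without *Cyp3a11*, the summed level differed by -0.29, -0.57 and -0.87 at 3, 10 and 30 µg/kg and passed the test. That test is not independent of the single-gene calls. Shares at 30 µg/kg with a mouse left out differed from vehicle, in percentage points, by 9.42 to 16.7 for *Cyp3a11*, -3.97 to -2.43 for *Cyp3a13*, -0.631 to -0.215 for *Cyp3a16*, -12.0 to -6.29 for *Cyp3a25*, -0.374 to -0.185 for *Cyp3a41a* and -1.39 to -1.21 for *Cyp3a59*. The *Cyp3a16* and *Cyp3a59* shares lost their calls in 5 and 4 of the tests without a treated mouse (exact permutation test, adjusted p up to 0.212 and 0.0635), while without mouse 4 those of *Cyp3a11*, *Cyp3a13* and *Cyp3a25* passed, and without vehicle mouse 1 that of *Cyp3a41a*. On library size alone the list counts moved to 4 higher for electron transfer and heme, 1 higher and 3 lower for *Cyp3a* regulators, 1 lower for pericentral, 3 lower for periportal, 8 higher for stellate and 1 higher for cholangiocyte genes, on the scale shifted for all genes. The cause of the other changes was not tested.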
